A study of Arabidopsis thaliana with 10 samples.

Results

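Transcripts of 5 enzymes of ascorbate synthesis were followed in Arabidopsis thaliana rosettes of 3 genotypes. The members were the probe sets annotated with 1 gene among PMM (AT2G45790), GME (AT5G28840), VTC4 (AT3G02870), AT4G33670 and GLDH (AT3G47930). Each gene had 1 such probe set, which gave 5 of 22746 probe sets tested, or 5 of the 13356 genes that the annotation assigned a probe set alone. The genotypes were Col 0 wild type (3 arrays), abi4-102, a mutant of ABA INSENSITIVE 4 (3 arrays), and vtc1, a mutant of VITAMIN C DEFECTIVE 1 (4 arrays). The labels name no further allele, transgene or agent for any genotype, and give no allele number for vtc1. Plants of all 3 genotypes grew on compost with 8 h of light per day at 200 µmol m-2 s-1, 60% relative humidity and 23 °C by day against 18 °C at night, and whole rosettes were frozen at 42 days. Single-colour arrays were hybridised with biotin-labelled cRNA. The titles call the samples biological replicates, but do not say whether a replicate was 1 plant or a pool, so the tests reflect the spread of these samples.

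Ascorbate (vitamin C) is the main soluble antioxidant of leaves, and plants make most of it from mannose through L-galactose. PMM, phosphomannomutase, prepares mannose phosphate for VTC1, the GDP-mannose pyrophosphorylase. GME, an epimerase, then turns GDP-mannose into GDP-L-galactose, which VTC2 and VTC5 break down to L-galactose phosphate. VTC4 removes the phosphate, and also acts on myo-inositol phosphate. The L-galactose dehydrogenase AT4G33670 oxidises L-galactose, and GLDH completes ascorbate at the inner mitochondrial membrane, where it passes electrons to cytochrome c and also serves in complex I assembly. ABI4 is an AP2-type transcription factor of the abscisic acid response. GDP-mannose also feeds fucose, cell wall mannan and protein glycosylation, so the step affected in vtc1 is not particular to ascorbate. The transcripts of VTC1, VTC2, VTC5 and ABI4 were not analysed here, because the annotation assigned none of them a probe set alone, and the genotype labels were therefore not checked through VTC1 or ABI4. Ascorbate itself was not measured.

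The deposited arrays had a median intensity of 42.6 to 45.6. How they were scaled is not known, so alike medians do not show an alike depth of signal. Replicates correlated at 0.997 to 0.999 on the log2 scale, compared with 0.985 to 0.990 between genotypes. All 5 transcripts lay far above background: their lowest intensity was 112, against at most 19.8 for the brightest of 27 Bacillus control probe sets. Leaf genes of the Calvin cycle and the antenna were bright on every array, but the summed intensity of 5 of 6 listed leaf markers moved with genotype, from 30176 to 30668 in wild type to 26159 to 27787 in abi4-102, with vtc1 at 27401 to 28294. RCA, PRK and SBPASE were called lower in both mutants, while LHCB4.1 (-0.04 in vtc1 and -0.03 in abi4-102, log2) and LHCB4.2 (0.07 and 0.10) were not called. That of 2 guard cell markers was 212 to 224, 287 to 338 and 167 to 181, and the only measured phloem marker, AT5G18600, had 1048 to 1088, 1386 to 1515 and 885 to 969, in wild type, abi4-102 and vtc1 respectively. The guard cell sum followed AT1G22690 (log2 change 0.66 in abi4-102 and -0.40 in vtc1, both called), and FAMA was not called (-0.08 and -0.14). The 2 root markers summed to 38.0 to 46.7, 32.0 to 38.1 and 34.0 to 41.2. Of these, EXPA7 was called lower in both mutants (-0.34 in vtc1 and -0.41 in abi4-102), and EXPA18 lay near the controls and was not called. No flower or seed marker was measured. Hybridization spike-ins had a mean log2 signal of 8.59 ± 0.12 (SD, n = 4) in vtc1, lower than 8.82 ± 0.05 (n = 3) in wild type and 8.79 ± 0.04 for the 3 abi4-102 arrays. RNA integrity can be read from actin control probe sets, of which 1 pair had a 3' minus 5' log2 difference of 1.69 to 2.10 in wild type, above every array of abi4-102 (1.36 to 1.56) and vtc1 (1.49 to 1.67), while a second actin control overlapped between genotypes. Of 2 such GAPDH pairs, 1 had 1.02 to 1.59 in wild type, above every abi4-102 array (0.90 to 0.98) and overlapping vtc1 (0.72 to 1.10), and the other overlapped between all genotypes. The part of these markers and controls in the changes below was not tested. In whole rosettes, fewer cells of a type and less RNA per cell cannot be told apart.

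The comparison of each mutant with wild type asks how these 5 transcripts stand in a line with a defect in ascorbate synthesis and in a line that lacks normal ABI4 function. In vtc1, PMM rose while VTC4 and AT4G33670 fell, and in abi4-102 PMM rose and VTC4 fell. The changes were modest, between 1.32-fold and 1.50-fold where called, and GME and GLDH were not called in either mutant. In vtc1, 3 of 5 transcripts were called (limma, adjusted p under 0.05), where 36.6% of all probe sets were, with 1 of 5 higher against 18.1% and 2 of 5 lower against 18.5%. In abi4-102, 2 of 5 were called against 34.9% of all probe sets, with 1 of 5 higher against 18.8% and 1 of 5 lower against 16%. Between the mutants 1 of 5 was called against 39% of all probe sets, namely lower in vtc1, as 21.2% were. The number of calls among the 5 thus lay near the background. Their median log2 change was -0.16 in vtc1 and 0.00 in abi4-102, beside -0.03 and -0.01 over all probe sets, and their median absolute log2 change was 0.40 and 0.17 beside 0.13 and 0.14. Between the mutants the median absolute change was 0.03, beside 0.14 over all probe sets. The 2 comparisons with wild type share the 3 wild-type arrays.

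**Figure D1:**
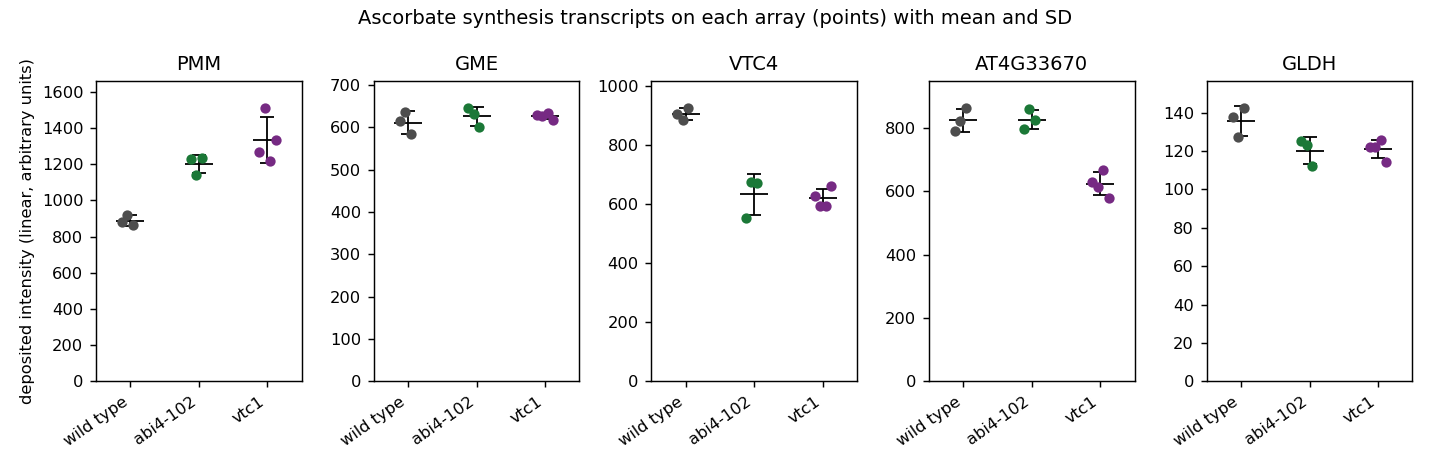
Deposited linear intensity (y axis from 0, arbitrary units, a scale of its own in each panel) of the 5 transcripts by genotype, with 1 point per array and bars for the mean and SD (n = 3, 3 and 4). PMM lies higher and VTC4 lower on every mutant array, AT4G33670 is lower on the 4 vtc1 arrays alone, and GME overlaps between all genotypes.

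PMM, which acts before the step affected in vtc1, was the transcript that rose. On the wild-type arrays it read 879, 920 and 864, on the abi4-102 arrays 1226, 1143 and 1232, and on the vtc1 arrays 1268, 1509, 1218 and 1332. Every array of either mutant was above every wild-type array, and the abi4-102 and vtc1 arrays overlapped. An absence of overlap with wild type was common, at 41.9% of all probe sets in vtc1 and 43.5% in abi4-102. Wild type had a mean intensity of 888 ± 29.0 (SD, n = 3), abi4-102 1200 ± 49.9 (n = 3) and vtc1 1332 ± 127 (n = 4). The log2 change was 0.58 ± 0.07 (SE) in vtc1, a 1.50-fold rise (limma adjusted p = 7.8e-06), and 0.43 ± 0.08 in abi4-102, a 1.35-fold rise (adjusted p = 0.00034). Among all probe sets 4.73% rose more in vtc1 and 7.26% in abi4-102. The 2 mutants differed by 0.15, with a 95% interval from -0.01 to 0.30, which missed the threshold (adjusted p = 0.13). That difference was called under quantile normalization (0.23, adjusted p = 0.015), under spike-in scaling (0.35, adjusted p = 0.0028) and with an intensity trend and robust estimation together in the variance model (0.15, adjusted p = 0.043). Whether PMM stood higher in vtc1 than in abi4-102 therefore depended on the setting. Without vtc1 replicate 2, the brightest array, the change in vtc1 was 0.52 (adjusted p = 1.8e-05) and the difference between the mutants 0.08 (adjusted p = 0.36).

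GME, which makes the first intermediate with L-galactose, was nearly level. It read 614, 636 and 584 in wild type, 645, 632 and 602 in abi4-102, and 629, 626, 635 and 619 in vtc1. The 3 genotypes overlapped, and the 4 vtc1 arrays were the closest together. Means were 611 ± 26.3 (SD, n = 3), 626 ± 22.3 (n = 3) and 627 ± 6.76 (n = 4). The log2 change was 0.04 in vtc1, with a 95% interval from -0.08 to 0.16, and 0.03 in abi4-102, with an interval from -0.10 to 0.16 (limma adjusted p = 0.66 and 0.72). The intervals leave room for a change of up to 1.12-fold higher in either mutant, so a small change is not excluded. Under spike-in scaling GME was called higher in vtc1 by 0.27 (adjusted p = 0.020), where all probe sets had a median of 0.21.

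VTC4, the phosphatase that releases L-galactose, fell in both mutants. It read 906, 883 and 923 in wild type, 553, 675 and 670 in abi4-102, and 628, 594, 593 and 662 in vtc1. Every wild-type array was above every mutant array, where 41.9% of all probe sets had no overlap in vtc1 and 43.5% in abi4-102. The lowest of the 10 arrays was abi4-102 replicate 1. Means were 904 ± 20.1 (SD, n = 3) for wild type, 633 ± 69.2 (n = 3) for abi4-102 and 619 ± 32.9 (n = 4) for vtc1. The log2 change was -0.55 ± 0.07 (SE) in vtc1 (1.46-fold lower, limma adjusted p = 1.9e-05) and -0.52 ± 0.08 in abi4-102 (1.43-fold lower, adjusted p = 8.5e-05). Only 3.62% of probe sets fell more in vtc1 and 2.93% in abi4-102. Between the mutants the difference was -0.03, with a 95% interval from -0.18 to 0.13 (adjusted p = 0.82). Both falls stayed called under each of the 19 alternatives run, with log2 changes from -0.60 to -0.31 in vtc1, the last under spike-in scaling (adjusted p = 0.0075), and from -0.57 to -0.43 in abi4-102. The change of -0.43 was that without abi4-102 replicate 1 (adjusted p = 0.00032).

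AT4G33670, the L-galactose dehydrogenase, fell in vtc1 and was not called in abi4-102. It read 789, 821 and 861 in wild type, 796, 858 and 823 in abi4-102, and 630, 615, 667 and 580 in vtc1. The highest vtc1 array lay below the lowest array of the other genotypes, which overlapped. Arrays of vtc1 did not overlap those of wild type for 41.9% of all probe sets, or those of abi4-102 for 42%. Means were 824 ± 36.0 (SD, n = 3), 826 ± 31.0 (n = 3) and 623 ± 36.2 (n = 4). The log2 change in vtc1 was -0.40 ± 0.06 (SE) against wild type, a 1.32-fold fall (limma adjusted p = 9.2e-05), and -0.41 ± 0.06 against abi4-102 (adjusted p = 9.3e-05). In abi4-102 it was 0.00 with a 95% interval from -0.14 to 0.15 (adjusted p = 0.98). The contrast of vtc1 with abi4-102 is also the test of the difference between the changes of the mutants, so this transcript separated them, whereas PMM, GME, VTC4 and GLDH did not pass that test. A probe set lower in vtc1 than in both other genotypes was no rarity, since 9.85% of all probe sets were called so. Both calls of AT4G33670 were lost under spike-in scaling, with log2 changes of -0.17 (adjusted p = 0.15) against wild type and -0.20 (adjusted p = 0.092) against abi4-102. They were kept in all other alternatives run, including those that left out 1 array, where the change against wild type was -0.44 to -0.37.

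GLDH, the last enzyme, was the dimmest of the 5 and lay close to the threshold. It read 138, 127 and 142 in wild type, 125, 123 and 112 in abi4-102, and 122, 122, 126 and 114 in vtc1. Each mutant array was below each wild-type array, by a small margin between wild-type replicate 2 and the brightest vtc1 array. Means were 136 ± 7.76 (SD, n = 3), 120 ± 7.03 (n = 3) and 121 ± 4.72 (n = 4). The log2 changes of -0.16 in vtc1 (95% interval -0.30 to -0.03) and -0.17 in abi4-102 (-0.32 to -0.03) were not called (limma adjusted p = 0.061 and 0.063). Arrays without overlap were common, at 41.9% of probe sets in vtc1 and 43.5% in abi4-102. GLDH was called lower in both mutants under quantile normalization (log2 changes -0.21 and -0.23), after subtraction of array medians (-0.21 and -0.19), with a pseudocount of 16 (-0.15 and -0.16), without dim probe sets (-0.16 and -0.17) and without wild type replicate 2 (-0.21 and -0.22). Under spike-in scaling the change in vtc1 was 0.07 (adjusted p = 0.55). Against each other the mutants differed by 0.01 (adjusted p = 0.92).

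**Figure D2:**
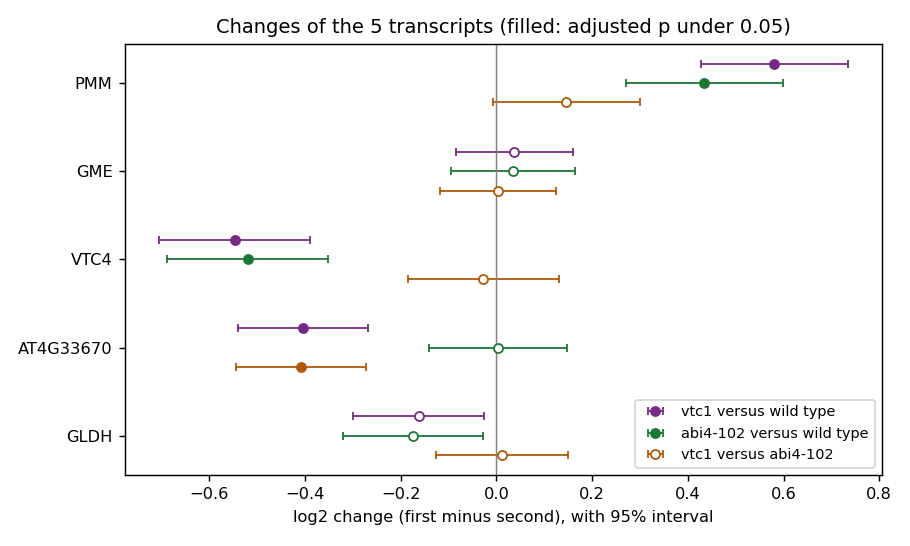
Log2 change of each transcript (x axis) in the 3 comparisons, with the 95% interval of the limma fit, and filled points where the adjusted p was under 0.05. Of the 5 transcripts, PMM and VTC4 are filled for both mutants, AT4G33670 for vtc1 against either other genotype, and GME and GLDH in no comparison.

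The order of the genotypes was read from these levels. For PMM it was wild type, then abi4-102, then vtc1, where the last pair overlapped and its difference was called only in some settings. For VTC4 both mutants stood below wild type, and the arrays of the mutants overlapped. Their difference was not called and changed sign with the setting (-0.03 as deposited, 0.03 under quantile normalization). For AT4G33670 vtc1 stood below the other pair. Higher in both mutants, as PMM was, described 9.72% of all probe sets, and lower in both, as VTC4 was, 7.49%. Called in neither mutant, as GME and GLDH were, described 48.7%.

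Differences between 2 transcripts on the same array do not depend on a factor applied to the whole array. Levels of unlike probe sets cannot be compared, so only the change of such a difference between genotypes is described, with no test. The log2 difference of PMM minus VTC4 was -0.03 ± 0.08 (SD, n = 3) for wild type, 0.93 ± 0.20 (n = 3) for abi4-102 and 1.10 ± 0.16 (n = 4) for vtc1. It was at most 0.06 on a wild-type array and at least 0.76 on a mutant array. Since PMM was higher and VTC4 lower on every mutant array, this separation follows from their levels. From wild type, the ratio of PMM to VTC4 thus differed 1.94-fold in abi4-102 and 2.18-fold in vtc1. PMM minus AT4G33670 was 0.11 ± 0.09, 0.54 ± 0.11 and 1.09 ± 0.19 in wild type, abi4-102 and vtc1, with no overlap between any 2 genotypes. VTC4 minus AT4G33670 set the mutants apart, at -0.39 ± 0.12 for abi4-102 and -0.01 ± 0.15 for vtc1, beside 0.13 ± 0.06 for wild type. In vtc1, where both of these transcripts were called lower, 1 of 4 arrays fell within the wild-type range of that difference. GME minus VTC4 was higher than in wild type by 0.55 in abi4-102 and by 0.58 in vtc1, and GME minus GLDH by 0.21 and 0.20.

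**Figure D3:**
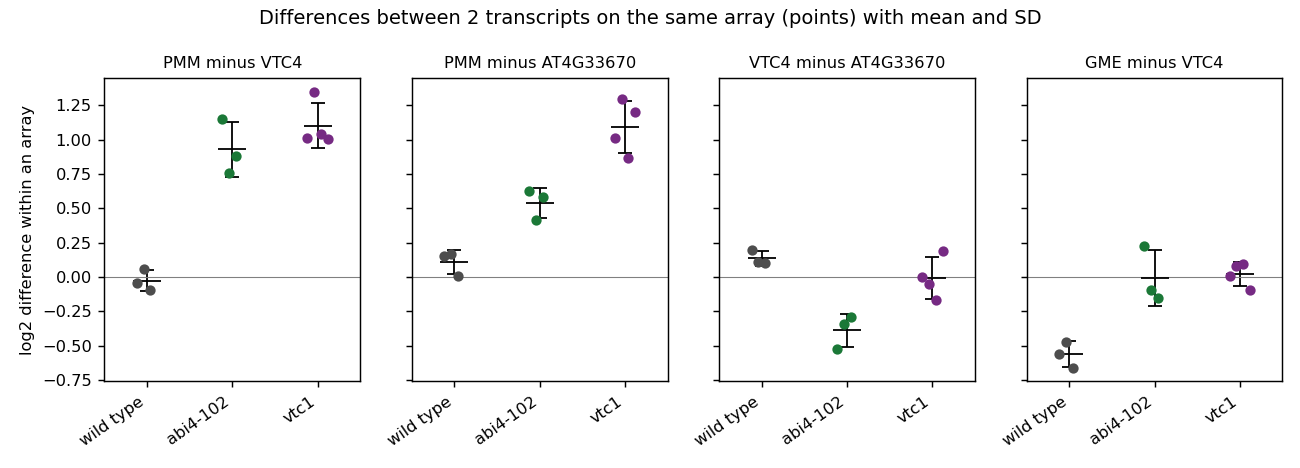
Log2 difference between 2 transcripts on the same array (y axis) by genotype, with 1 point per array and bars for the mean and SD (n = 3, 3 and 4). PMM minus VTC4 is at most 0.06 in wild type and at least 0.76 in both mutants. VTC4 minus AT4G33670 is at most -0.30 in abi4-102 and lies from -0.17 to 0.19 in vtc1.

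The spike-in signal was lower in vtc1, so the scaling of the arrays was varied. With scaling on the 18 spike-in probe sets, the median change over all probe sets moved on the log2 scale from -0.03 to 0.21 in vtc1 versus wild type and from -0.02 to 0.18 in vtc1 versus abi4-102, and was 0.03 in abi4-102 versus wild type. Of the probe sets called in vtc1 versus wild type, 49.5% were higher as deposited, 89.4% under spike-in scaling and 36.4% after subtraction of array medians, and versus abi4-102 45.7% and, under spike-in scaling, 86.7%. Such scaling shifts all probe sets of an array alike, so changes relative to that median are the same by construction, in vtc1 0.61 for PMM, 0.06 for GME, -0.52 for VTC4, -0.38 for AT4G33670 and -0.14 for GLDH. The direction of PMM and VTC4 in both mutants, and that of AT4G33670 in vtc1, was the same under all 4 scalings. The direction of GLDH in vtc1 turned under spike-in scaling, and that of GME in vtc1 after subtraction of array medians (-0.01).

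**Figure D4:**
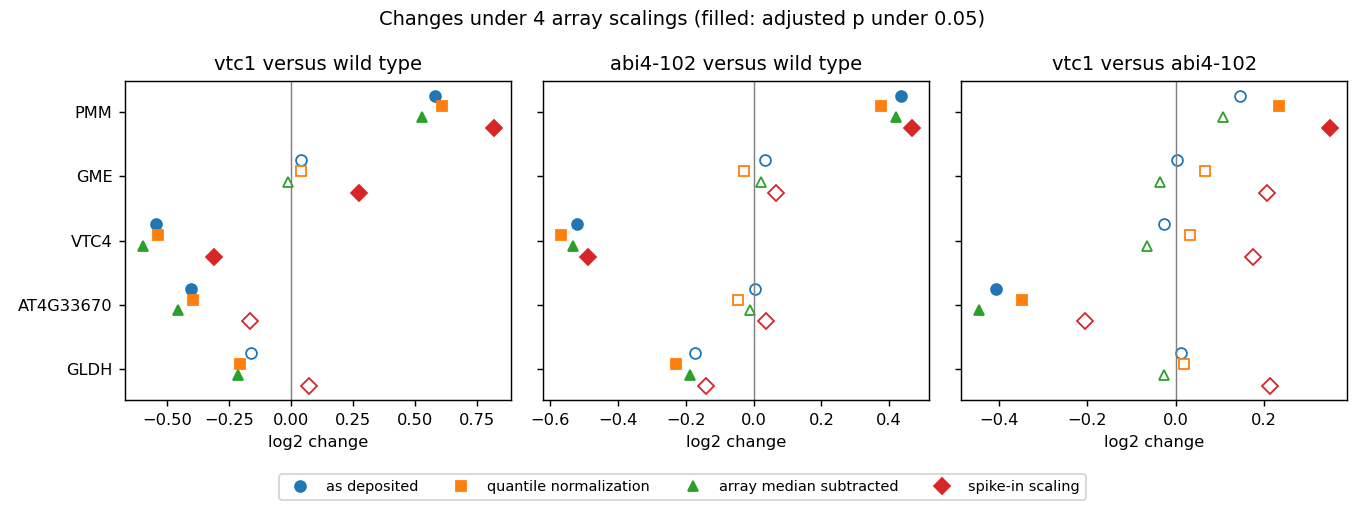
Log2 change (x axis, a scale of its own in each panel) of the 5 transcripts under 4 scalings of the arrays, filled where the adjusted p was under 0.05. PMM stays above 0 and VTC4 below 0 in both mutants versus wild type under every scaling, and AT4G33670 in vtc1 is open under spike-in scaling alone (-0.17).

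The genes whose levels followed each member most closely were taken from 7633 probe sets with 1 gene above the Bacillus controls on all 10 arrays, by Pearson's r over the 10 arrays of 3 genotypes. These values describe the arrays and largely repeat the genotype means, except for GME, whose means were nearly level. Nearest to PMM were AT1G17620 (r = 0.981), AT4G01610 (0.970) and AT1G80960 (0.970), which rose by 0.69, 0.69 and 1.23 in vtc1 and by 0.57, 0.46 and 0.96 in abi4-102 on the log2 scale. Nearest to VTC4 were AT1G31710 (0.976), AT3G55940 (0.968) and AT3G61080 (0.968). AT3G55940 went from an intensity of 251 ± 16.3 (SD, n = 3) in wild type to 82.2 ± 16.1 (n = 3) in abi4-102 and 61.2 ± 3.36 (n = 4) in vtc1, with log2 changes of -1.61 and -2.02. Nearest to AT4G33670 were AT5G52450 (0.989), AT2G38790 (0.984) and AT5G59250 (0.984), which had log2 changes of -0.47, -0.30 and -0.57 in vtc1 and of 0.00, -0.04 and 0.00 in abi4-102. Nearest to GLDH were AT3G07940 (0.952), PSBY (0.926), a photosystem II protein, and AT1G73920 (0.917). GME, with its small range, had weaker matches, AT1G69570 (0.878), AT3G49720 (0.876) and AT4G35370 (0.874), which were called in no comparison. Among the members, r was -0.90 for PMM with VTC4, -0.77 for PMM with GLDH, -0.70 for PMM with AT4G33670 and 0.65 for VTC4 with GLDH.

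Of 64 other genes listed around the pathway, in 6 lists, 12 were measured by a probe set that names no other gene. None was measured among the 16 genes of the myo-inositol and gulonolactone routes or the 5 mitochondrial gamma carbonic anhydrases of complex I, in whose assembly GLDH takes part. Of 7 other genes listed with the synthesis steps, 2 were measured. AT1G74910 was called lower in vtc1, at 351 ± 17.6 (SD, n = 4) against 424 ± 22.7 (n = 3) for wild type and 407 ± 6.66 (n = 3) for abi4-102. Its log2 change was -0.27 against wild type (limma adjusted p = 0.0025) and -0.21 against abi4-102 (adjusted p = 0.011). AT2G04650 was called higher in abi4-102 by 0.28 (adjusted p = 0.031). This call was lost with a pseudocount of 16 (0.20, adjusted p = 0.052). It was also lost without wild type replicate 1 (0.18) or any 1 of the abi4-102 arrays (0.27 to 0.29). Under spike-in scaling AT1G74910 was not called (-0.03 and -0.01), and AT2G04650 was called higher in vtc1 (0.42, adjusted p = 0.00024, against 0.18 as deposited). With the replicate number as a block, AT1G74910 was not called against abi4-102 (-0.20, adjusted p = 0.054). CSN5B, a signalosome subunit known to bind VTC1, was measured as the only 1 of 5 listed regulators and was not called in vtc1 (-0.06, adjusted p = 0.57) or abi4-102 (0.08, adjusted p = 0.50).

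Of 12 listed other users of GDP-mannose, 3 were measured. GER2 and CSLA03 were called higher in both mutants, as 9.72% of all probe sets were, and CSLA01 lower in both, as 7.49% were. GER2, of GDP-L-fucose synthesis, read 191 ± 12.4 (SD, n = 3) for wild type, 241 ± 11.6 (n = 3) for abi4-102 and 290 ± 6.96 (n = 4) for vtc1, and its difference between the mutants was called as well (log2 0.26, limma adjusted p = 0.0031). CSLA01, of the mannan synthase family, fell from 122 ± 9.63 to 23.6 ± 2.84 in abi4-102 and 18.8 ± 1.97 in vtc1, where 3 of 4 arrays were above the control level. CSLA03 of the same family had log2 changes of 0.28 in both mutants, called, of which the call in abi4-102 was lost with wild type replicate 3 omitted (0.22), or either of abi4-102 replicates 1 and 2 (0.24 and 0.22). The median log2 change of these 3 genes was 0.28 in each mutant.

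Of 19 listed genes of ascorbate use and recycling, 6 were measured. In vtc1 3 were called higher and 2 lower, where 18.1% and 18.5% of all probe sets were, with a median log2 change of 0.05. In abi4-102 1 was higher and 2 were lower, where 18.8% and 16% were, with a median of 0.14. Of these 6, AT4G39830 had the largest change in vtc1, from 42.2 ± 1.00 (SD, n = 3) in wild type to 91.5 ± 4.45 (n = 4) in vtc1 (log2 1.10, limma adjusted p = 6.2e-09), and 46.3 ± 5.30 (n = 3) in abi4-102, not called. Of that list, MDAR2, which recycles monodehydroascorbate, was called higher in both mutants with log2 changes of 0.55 and 0.51, and under spike-in scaling the difference between the mutants was called as well (0.24, adjusted p = 0.049, against 0.03 as deposited). TAPX, the thylakoid ascorbate peroxidase, had -0.57 in vtc1 and -0.21 in abi4-102. The latter call was lost under spike-in scaling (-0.18), with only the 2 genotypes compared (-0.21, adjusted p = 0.061), and when wild type replicate 1, wild type replicate 2, abi4-102 replicate 2 or abi4-102 replicate 3 was omitted (-0.19 to -0.17). SAPX, the stromal form, was called in vtc1 by 0.17 (adjusted p = 0.034), a call lost without any 1 wild-type array or vtc1 replicate 1, 2 or 4 (0.13 to 0.18), under quantile normalization (0.14), after subtraction of array medians (0.12) and with the replicate block (0.17, adjusted p = 0.083). In abi4-102 SAPX was not called (0.16, adjusted p = 0.059), but it was with a pseudocount of 16 (adjusted p = 0.016), without dim probe sets (0.044), with trend and robust variance (0.035) and without vtc1 replicate 2 (0.048). AT5G21100 was called lower in both mutants (-0.26 and -0.46), though in vtc1 not under spike-in scaling (-0.02). AT5G21105 was not called in either (-0.06 and 0.18), although in abi4-102 it was without wild type replicate 3 (0.26). Without abi4-102 replicate 3, AT4G39830 was called in abi4-102 too (0.22).

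**Figure D5:**
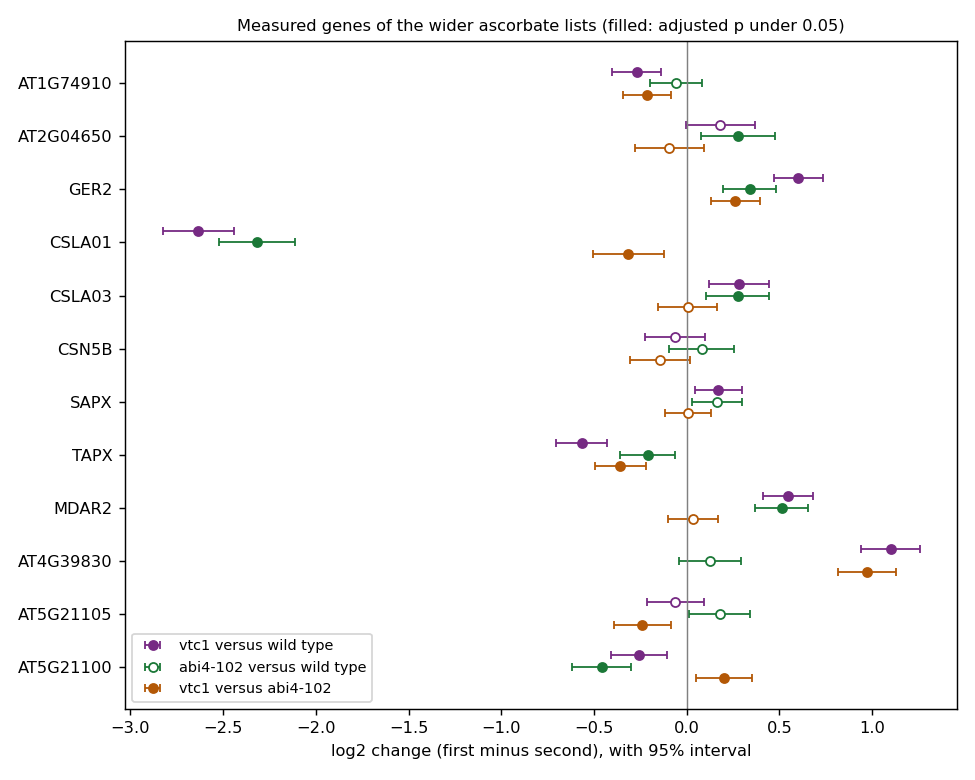
Log2 change (x axis) with its 95% interval of the 12 measured genes from 6 lists around ascorbate synthesis in the 3 comparisons, filled where the adjusted p was under 0.05. CSLA01 falls furthest in both mutants. AT4G39830 is called higher in vtc1 against wild type (1.10) and against abi4-102 (0.97), and is not called in abi4-102 against wild type (0.13).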

How the data were processed

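The authors' deposited table holds linear intensity per probe set for 10 arrays. The sources used here do not give how probes were summarised or arrays scaled. All 64 control probe sets were set aside. Values were converted to log2(intensity + 1), so changes are on that scale. Gene names came from the platform annotation, updated through a TAIR10.1 gene table: 13513 of 22746 probe sets carried 1 gene (13436 matched the table), 503 several and 8730 none. A gene named there by its locus alone is called by its locus.

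A single linear model of genotype was fitted to all arrays in R 4.3.3 by limma 3.58.1 (lmFit, then eBayes, two-sided tests). The fit was tried on simulated data with 200 changed probe sets per size. A first trial missed the recovery required at a log2 change of 0.5, and the requirement was then moved to 1. In the trial kept, the calls recovered 93.0 to 93.5% of changes of 0.5 and 34.0 to 46.5% of changes of 0.25 over the 3 comparisons. Far fewer probe sets were changed there than were called in the data, which makes the adjusted threshold stricter. These shares are therefore not the power of the real comparisons. No size as small as that of GLDH was tried, so how often such a change is missed was not measured. Benjamini-Hochberg adjustment covered all 22746 probe sets, and those under 0.05 were called, with no fold threshold. Tables were handled in pandas 2.3.3 (Python 3.11.15) and drawn in matplotlib 3.10.9. Named genes were the 5 members, all measured genes of the 6 lists, and the 3 genes most alike to each member. The members and lists were chosen with earlier results of these data known. Alternatives were the pseudocount, the scaling, a filter on dim probe sets, the arrays in the fit, the variance model and the replicate number as a block. The number of arrays limits the precision.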

Additional observations from a re-analysis of the deposited data

Results flagged for a closer look

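AT4G33670, the L-galactose dehydrogenase, changed differently in the 2 mutants. Its change from wild type was -0.40 on the log2 scale in vtc1 and 0.00 in abi4-102, a difference of -0.41 (limma adjusted p = 9.3e-05), seen on 4 of 4 vtc1 arrays against all 3 of abi4-102. Differences of this kind were frequent, at 39% of all probe sets, and the arrays of these 2 genotypes did not overlap for 42%. Under spike-in scaling the difference of AT4G33670 was -0.20 and not called. In the 5 groups of 4 vtc1 arrays, 1 for each transcript, no array stood far from the others.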

How the results depend on the processing

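All values are log2 changes. The calls of PMM and VTC4 in both mutants held under each of the 19 alternatives run per comparison, and the counts of called probe sets stayed within 1.5 times of those reported. Spike-in scaling had the most effect. In vtc1 versus wild type it gave 0.27 for GME (called), -0.17 for AT4G33670 (call lost), 0.07 for GLDH, 0.17 for CSN5B, 0.17 for AT5G21105 and 0.42 for AT2G04650 (called). In vtc1 versus abi4-102 it gave 0.35 for PMM (called), 0.18 for VTC4, -0.20 for AT4G33670 (call lost), 0.11 for AT2G04650, 0.060 for CSN5B and 0.24 for MDAR2 (called). Calls lost there as well were those of TAPX (-0.15), CSLA01 (-0.11), AT5G21105 (-0.036) and AT1G74910 (-0.011). Against wild type, those of AT1G74910 (-0.034) and AT5G21100 (-0.023) in vtc1 and of TAPX (-0.18) in abi4-102 were lost too. After subtraction of array medians, GME was -0.015 and GLDH -0.21 (called) in vtc1, and AT4G33670 was -0.010 and GLDH -0.19 (called) in abi4-102. Between the mutants the same setting gave -0.035 for GME, -0.027 for GLDH, -0.032 for CSLA03, -0.031 for SAPX and -0.0040 for MDAR2. Quantile normalization gave -0.21 for GLDH (called) in vtc1, and -0.028 for GME, -0.046 for AT4G33670 and -0.23 for GLDH (called) in abi4-102. Between the mutants it gave 0.23 for PMM (called), 0.032 for VTC4 and -0.0060 for CSLA03. GLDH was also called with a pseudocount of 16 (-0.15 in vtc1 and -0.16 in abi4-102) and without dim probe sets (-0.16 and -0.17), and PMM between the mutants with an intensity trend and robust variance together (0.15). The cause of these shifts was not tested.

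With 1 array left out at a time, GLDH ranged from -0.21 to -0.13 in vtc1 and from -0.22 to -0.13 in abi4-102, and was called in both without wild type replicate 2 (adjusted p = 0.037 and 0.038) and in neither otherwise. Ranges that crossed 0 were -0.027 to 0.036 for AT4G33670 in abi4-102 and -0.13 to 0.017 for AT5G21105 in vtc1. Between the mutants they were -0.026 to 0.025 for GME, -0.12 to 0.023 for VTC4, -0.037 to 0.041 for GLDH, -0.082 to 0.058 for CSLA03, -0.029 to 0.036 for SAPX and -0.0045 to 0.073 for MDAR2.

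The genotypes share replicate numbers. Over 9 same-numbered pairs, deviations from the group means correlated at -0.05 to 0.10, and 4 of 10 arrays correlated best with their own number. These were replicates 1 and 3 of wild type and vtc1, at 0.09 and 0.10, while vtc1 replicate 4 has no array of its number in the other genotypes. The main fit did not use the numbers, and whether they pair wild type with vtc1 was not settled. With the number as a replicate block, PMM was 0.58 in vtc1 and 0.43 in abi4-102, VTC4 -0.58 and -0.52, and AT4G33670 -0.37 in vtc1. Only vtc1 has a replicate 4, so in this fit that array added nothing to the comparisons. The changes in vtc1 equal those without it, so the fit does not set pairing apart from the loss of that array. No call of the 5 enzymes changed. Calls lost were those of SAPX in vtc1 (0.17), and of AT1G74910 (-0.20) and AT5G21100 (0.21) between the mutants. Those of SAPX and AT5G21100 were lost as well when only vtc1 replicate 4 was left out. Under the block the number of called probe sets became 7414 for vtc1 and 7611 for abi4-102 against wild type, and 7971 between the mutants. With 3 or 4 arrays per genotype, the changes seen for GLDH lay close to the threshold of the calls.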

Other observations

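The nearest genes on either side of each member that were measured were looked up in the gene table after the values had been seen. AT3G02860, next to VTC4, had a log2 change of -0.54 in abi4-102 (limma adjusted p = 1.6e-05), close to the -0.52 of VTC4 there, and of -0.09 in vtc1 (adjusted p = 0.30). AT3G02880, 3 genes away on the other side of VTC4, had 0.08 in vtc1 and -0.08 in abi4-102, neither called. Both genes adjoining PMM, the non-coding AT2G45780 and PLIM2a, were not called in either mutant, with log2 changes of -0.11 and -0.11 in vtc1 and 0.04 and 0.02 in abi4-102. The neighbours of GME, AT4G33670 and GLDH were not called against wild type either. Between the mutants, AT4G33666, 2 genes from AT4G33670, had -0.35 (adjusted p = 0.0030), AT3G47910, 2 genes from GLDH, had 0.35 (adjusted p = 0.0021), and AT3G02860 had 0.45 (adjusted p = 4.4e-05). The other neighbours were not called between the mutants. Such calls were common, at 39% of all probe sets between the mutants and 34.9% in abi4-102 versus wild type.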
